A study of Homo sapiens with 12 samples.

Results

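The ATF4 and unfolded protein response genes are 36 listed targets and effectors of cellular stress signalling, 17 of them in the ATF4 arm and 19 in the endoplasmic reticulum (ER) chaperone arm. They were found on the arrays by gene symbol. A gene was tested where at least 1 of its probes had a detection p under 0.01 on at least 6 of 12 arrays, and the brightest such probe stood for the gene. By this rule 32 of the 36 were tested, 15 in the ATF4 arm and 17 in the ER chaperone arm, out of 10196 genes tested and 20045 named genes on the array. The other 4 gave no value to compare. CHAC1, a glutathione-degrading enzyme, VLDLR, a lipoprotein receptor, and PDIA3, a disulfide isomerase, were detected on 0 of 12 arrays by any of their probes, which read 97.9 to 131.2 raw units over the 3 genes. No probe was named for HERPUD1, an ER membrane protein of protein degradation.

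The cells were HUH6, a line from a human hepatoblastoma, which is a liver tumour of childhood. They received by transfection a pool of siRNAs that target GATA4, an endodermal and cardiac transcription factor, or a non-targeting (NT) siRNA, at 0.1 uM. Medium was added after 6 h, and RNA taken at 72 h was read on Illumina expression beadchips, with 6 GATA4 siRNA samples and 6 NT siRNA samples numbered 1 to 6 in each group. Both groups were therefore transfected cells of the same line, and no untransfected cells were analysed here. Whether the samples were grown as separate cultures is not stated, so a p-value covers only the spread among these arrays, which may be technical, and their number limits the precision.

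The unfolded protein response senses misfolded protein in the ER through the membrane proteins PERK, IRE1 and ATF6. PERK phosphorylates the translation factor eIF2 alpha, as other kinases do under amino acid shortage, and this slows protein synthesis while favouring translation of ATF4, which turns on genes of amino acid supply and of stress signalling. IRE1 splices the XBP1 mRNA and ATF6 is cut free from the membrane, and the resulting factors turn on ER chaperones and the machinery that removes misfolded protein. Secretory cells such as hepatocytes rely on these chaperones. ATF4 is controlled largely at translation and XBP1 by splicing and ATF6 by cleavage, so the mRNA level of these factors, which is what the arrays read, is not their activity. In bulk RNA, fewer cells of a type and less RNA per cell cannot be told apart.

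GATA4 was above background on 0 of 6 GATA4 siRNA arrays, where its probe read 108.3 to 119.3 raw units, and on 6 of 6 NT siRNA arrays, where it read 137.1 to 168.8. With its undetected values used as read, its log2 change was -1.20 (limma adjusted p = 2.6e-05 with the replicate number as a block). As a bound that was not itself tested, GATA4 was at least 1.19-fold lower in GATA4 siRNA samples. For this bound, each GATA4 siRNA array was given its lowest detected signal, or the signal of the GATA4 probe where that was higher. GATA4 siRNA arrays had a median raw signal of 120.8 to 128.1 and 16120 to 16804 detected probes of 48106, and NT siRNA arrays had a median of 117.4 to 121.2 and 16067 to 16617 detected probes. Of 10 hepatoblast and hepatocyte markers, 7 were detected, among them AFP, ALB and GPC3, while DLK1 was detected on no array. Of 10 markers of fibroblasts, endothelium and leukocytes, 4 were detected (PDGFRB, PECAM1, CD68 and CD3D), and COL3A1, DCN, LUM, VWF, CDH5 and PTPRC were detected on no array. Their summed raw signal was 3219.2 to 4942.3 on the GATA4 siRNA arrays and 3153.3 to 4799.2 on the NT siRNA arrays.

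Promoter sequences are shown because the transcription factors of these responses bind known DNA elements. RefSeq promoters of GRCh38.p14, from 250 bases before to 50 bases after each transcript start, were found for 31 of the 36 genes, in 44 windows of 300 bases. Each was searched on both strands for 5 motifs. The ER stress element (ERSE), bound by ATF6 together with NF-Y, was searched as CCAAT and CCACG held apart by 9 free bases. It was found in 0.0769% of all 35116 promoters of that length, and in 0.0916% of the 27305 genes with such a promoter. Of the 31 listed genes, it was in none of the 14 matched in the ATF4 arm. It was in 7 of the 17 matched ER chaperone arm genes. The ERSE matches of these genes are shown with the letters of the motif in capitals and the free spacer in lower case, as read on the strand that carries the motif, to let the spacers be compared.
HSPA5: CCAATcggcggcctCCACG
HSP90B1: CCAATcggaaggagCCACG
HSP90B1: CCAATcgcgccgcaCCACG
CALR: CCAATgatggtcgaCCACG
CANX: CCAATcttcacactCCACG
PDIA6: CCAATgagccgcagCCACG
CRELD2: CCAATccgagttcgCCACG
XBP1: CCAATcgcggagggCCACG
The match of CANX lies in 3 overlapping windows of different transcript starts and is 1 site. Matches in the other genes lay between positions -225 and -34, counted in bases from the transcript start as position 0.

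The shorter ERSE-II, searched as ATTGG and CCACG held apart by 1 free base, was found in HYOU1, SDF2L1 and HERPUD1. It occurred in 0.0541% of all promoters and 0.0696% of all genes with a promoter. The unfolded protein response element TGACGTGG, associated with XBP1 and ATF6, was found in HYOU1 alone among the listed genes. There it overlaps an ERSE-II match. Its share was 0.729% of all promoters and 0.927% of all genes with a promoter. The composite C/EBP-ATF element (CARE) to which ATF4 binds with a C/EBP partner was searched as TGATGNAA. It was found in 3 of the 14 matched ATF4 arm genes (ASNS, ATF3 and CHAC1) and in HERPUD1 of the ER chaperone arm. Of all promoters 3.62% held it, and of all genes with a promoter 4.46%. The cyclic AMP response element TGACGTCA was found in PPP1R15A, in 1.85% of all promoters and in 2.25% of all genes with a promoter. These matches describe letters in a window and are not shown to be bound in HUH6 cells. Promoter windows that hold a match are shown for HSPA5 and HYOU1 of the ER chaperone arm and ASNS and ATF3 of the ATF4 arm. They serve as examples, since the changes of these genes recur below. Each is given 5′ to 3′ on the strand of the gene, with the letters of the motif matches in capitals, for HSPA5 at chr9:125241294-125241593 (minus strand), HYOU1 at chr11:119057156-119057455 (minus strand), ASNS at chr7:97872359-97872658 (minus strand) and ATF3 at chr1:212565157-212565456 (plus strand).
HSPA5: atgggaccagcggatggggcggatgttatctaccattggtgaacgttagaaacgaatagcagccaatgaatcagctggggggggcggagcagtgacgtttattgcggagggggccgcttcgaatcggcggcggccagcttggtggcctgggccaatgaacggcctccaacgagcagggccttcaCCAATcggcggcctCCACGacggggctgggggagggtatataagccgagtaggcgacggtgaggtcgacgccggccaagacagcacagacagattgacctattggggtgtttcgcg
HYOU1: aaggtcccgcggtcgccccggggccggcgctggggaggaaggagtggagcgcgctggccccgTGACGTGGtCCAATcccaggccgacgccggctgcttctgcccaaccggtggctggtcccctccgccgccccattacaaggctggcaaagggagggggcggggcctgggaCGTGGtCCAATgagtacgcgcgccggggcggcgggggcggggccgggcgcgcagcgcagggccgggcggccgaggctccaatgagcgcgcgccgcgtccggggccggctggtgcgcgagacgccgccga
ASNS: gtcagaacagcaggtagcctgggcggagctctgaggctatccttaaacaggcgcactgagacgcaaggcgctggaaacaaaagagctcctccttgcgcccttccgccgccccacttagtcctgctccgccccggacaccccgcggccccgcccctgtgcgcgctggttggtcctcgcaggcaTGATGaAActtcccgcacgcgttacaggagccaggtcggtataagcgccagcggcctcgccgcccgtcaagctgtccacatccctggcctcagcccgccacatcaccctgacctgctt
ATF3: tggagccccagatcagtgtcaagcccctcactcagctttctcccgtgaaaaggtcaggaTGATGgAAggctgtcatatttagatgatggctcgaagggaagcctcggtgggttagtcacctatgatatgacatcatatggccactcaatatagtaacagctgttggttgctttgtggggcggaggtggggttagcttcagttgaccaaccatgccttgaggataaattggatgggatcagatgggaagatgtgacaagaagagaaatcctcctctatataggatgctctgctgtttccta
The ERSE of HSPA5 lies at positions -66 to -48. HYOU1 holds ERSE-II matches on the strand opposite to the gene at -185 to -175 and at -79 to -69. The CARE of ASNS lies at -68 to -61. ASNS and ATF3 each have another annotated window, with no match to the searched motifs.

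**Figure D1:**
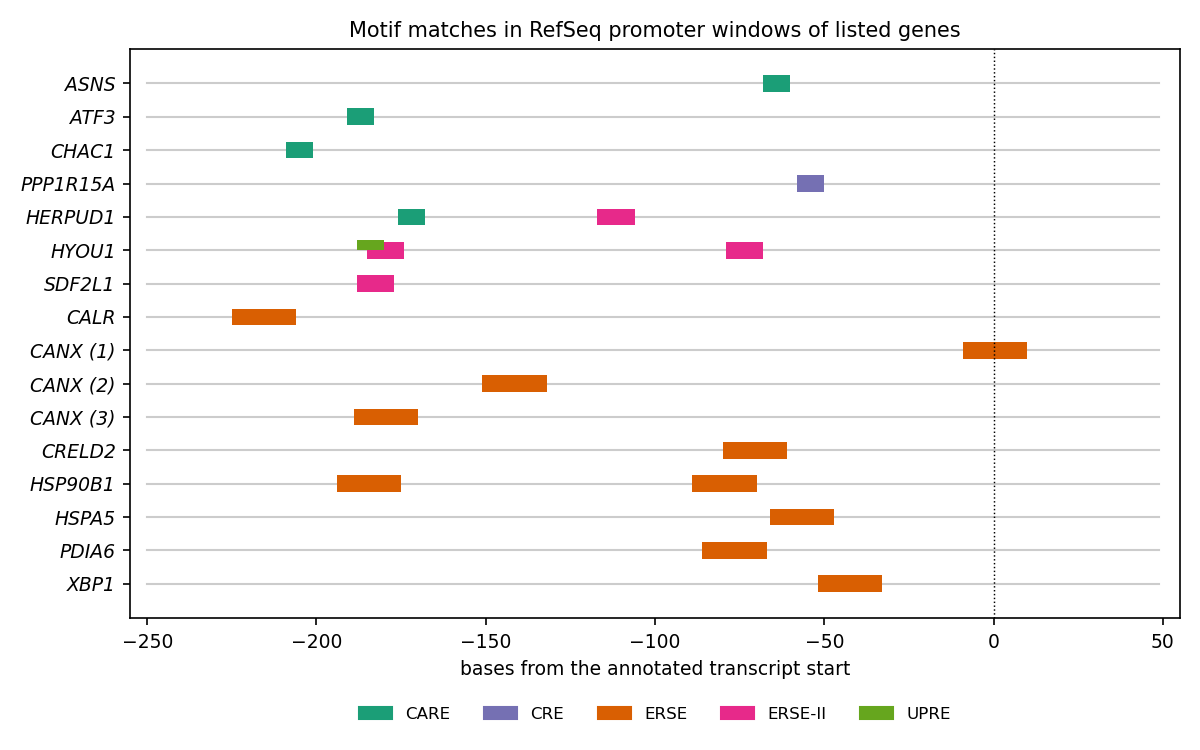
Position of each motif match (coloured blocks, by motif) in the RefSeq promoter windows of listed genes with a match, in bases from the annotated transcript start on the horizontal axis. ERSE and ERSE-II matches lie in ER chaperone arm genes, and CARE matches in ASNS, ATF3, CHAC1 and HERPUD1.

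After GATA4 siRNA few of these genes moved. With the replicate number as a block, SHMT2 and ERP27 rose, NUPR1 fell, and 29 of the 32 tested members did not pass the test (limma, Benjamini-Hochberg over 10196 genes, threshold 0.05). The members called were 2 higher and 1 lower, against 2.66% of all genes called higher and 3.78% called lower, or 6.43% in either direction. The count depended on the probe rule. With the mean of all tested probes per gene, 3 members were higher and 3 lower, against 235 and 371 of all genes. The median log2 change over the 32 members was 0.01, and over all genes tested it was 0.0021. Without the block, ERP27 alone passed, in a fit that called 0.706% of all genes, and 0.196% as higher. Within replicates 4 to 6 alone 3 members were higher and 2 lower, and 5.19% of all genes were called. Within replicates 1 to 3 alone 1 member was higher and 0 lower, and 1.19% of all genes were called. All 95% intervals of the members' log2 changes lay between -0.39 and 0.72.

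NUPR1, a small nuclear protein induced by stress and counted among the transcription regulators of the ATF4 arm, fell in the GATA4 siRNA samples. Its lowest, median and highest log2 signals were 9.90, 10.15 and 10.35 in GATA4 siRNA samples, against 10.19, 10.38 and 10.53 in NT siRNA samples. The GATA4 siRNA value was below that of the NT siRNA sample of the same number in 6 of 6 pairs, which holds for 6.12% of all genes, although the ranges of the groups overlap. The mean was 10.11 ± 0.17 in GATA4 siRNA samples and 10.37 ± 0.16 in NT siRNA samples (SD, n = 6 each), a log2 change of -0.26 (SE 0.060, limma adjusted p = 0.00867), or 0.834-fold. An exact two-sided permutation test within pairs gave p = 0.0312, the smallest that 6 pairs allow. Any gene with the same direction in 6 of 6 pairs reaches this value, so it adds nothing to that count. The call was lost without the block (limma adjusted p = 0.268), within replicates 1 to 3 (limma adjusted p = 0.227) and without replicate 6 (limma adjusted p = 0.0559). The other tested probe of NUPR1 gave a log2 change of -0.15 and did not pass over all probes (limma adjusted p = 0.112).

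SHMT2, the mitochondrial serine hydroxymethyltransferase that passes carbon from serine to folate, rose slightly. Its lowest, median and highest log2 signals were 12.10, 12.22 and 12.37 in GATA4 siRNA samples, against 11.94, 12.09 and 12.19 in NT siRNA samples. The groups overlap, but the GATA4 siRNA value was higher in 6 of 6 pairs, as for 5.63% of all genes. The log2 change was 0.15 (SE 0.040, limma adjusted p = 0.0214), or 1.11-fold, and the exact permutation test within pairs again gave p = 0.0312, the smallest possible. The call was lost without the block (limma adjusted p = 0.421), within replicates 4 to 6 (0.0742), within replicates 1 to 3 (0.329) and without replicate 1 (0.0583), 5 (0.0635) or 6 (0.0816). It was also lost with arrays scaled to equal medians (limma adjusted p = 0.169) and with no filter on detection (0.060).

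ERP27, an ER protein of the disulfide isomerase family that lacks the redox-active site, had the largest change of the 32. Its lowest, median and highest log2 signals were 7.21, 7.36 and 7.66 in GATA4 siRNA samples, against 6.55, 6.86 and 7.11 in NT siRNA samples. All 6 GATA4 siRNA arrays lay above all 6 NT siRNA arrays, and ranges that do not overlap were found for 1.68% of all genes. The mean was 7.39 ± 0.16 in GATA4 siRNA samples and 6.85 ± 0.24 in NT siRNA samples (SD, n = 6 each), a log2 change of 0.54 (SE 0.087, limma adjusted p = 0.000374), or 1.46-fold. It passed without the block (limma adjusted p = 0.0438), within replicates 4 to 6 (log2 change 0.46, limma adjusted p = 0.0236) and within replicates 1 to 3 (0.62, limma adjusted p = 0.0197). The probe is dim, and on the authors' normalised values, from which no background was subtracted, the log2 change was 0.32 (limma adjusted p = 0.000323).

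**Figure D2:**
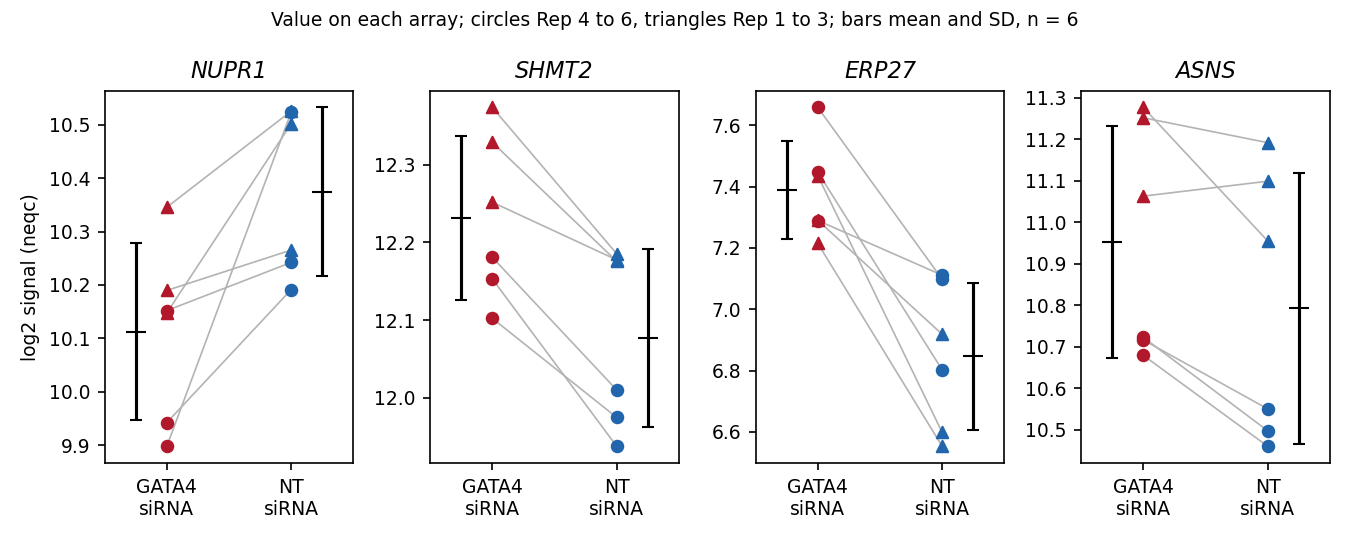
Log2 signal of NUPR1, SHMT2, ERP27 and ASNS on each array, GATA4 siRNA left and NT siRNA right, with the mean and SD of 6 arrays. Circles are replicates 4 to 6 and triangles replicates 1 to 3. ASNS did not pass the threshold. The ERP27 values of the GATA4 siRNA samples (7.21 to 7.66) all lie above those of the NT siRNA samples (6.55 to 7.11), while the groups overlap for the other genes.

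In the ATF4 arm, 1 of 15 tested genes rose, 1 fell and 13 did not pass the test, where 2.66% of all genes rose and 3.78% fell. The log2 change was above 0 for 12 of the 15, with a median of 0.06, and for 5188 of the 10196 genes tested. ATF4, the factor after which the arm is named, had a change of 0.02 (SE 0.040, limma adjusted p = 0.843) on its bright probe. Its lowest, median and highest values there were 13.43, 13.57 and 13.72 in GATA4 siRNA samples, against 13.40, 13.55 and 13.67 in NT siRNA samples, so the groups overlapped almost wholly. The other tested probe of ATF4 gave a change of 0.25 (SE 0.069, limma adjusted p = 0.0355 over all tested probes), so the probes disagreed in size and call. The other factors had changes of -0.01 for ATF3, a stress-induced repressor, 0.12 for DDIT3, the pro-apoptotic factor CHOP, and -0.04 for CEBPB, a binding partner of ATF4.

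All 6 tested enzymes of amino acid supply and folate metabolism had changes above 0, with a median of 0.12, though SHMT2 alone passed. Of all 10196 genes tested, 5188 had changes above 0. ASNS, which makes asparagine and whose promoter holds the CARE shown above, had a lowest, median and highest value of 10.68, 10.89 and 11.28 in GATA4 siRNA samples, against 10.46, 10.75 and 11.19 in NT siRNA samples. It was higher in 5 of 6 pairs, with a log2 change of 0.16 (SE 0.049, limma adjusted p = 0.0558), just missing the threshold. Its other probe gave 0.21 (limma adjusted p = 0.0275 over all tested probes), and ASNS also passed without replicate 3 (limma adjusted p = 0.0200). The serine synthesis enzymes had changes of 0.04 for PHGDH, which takes the opening step, 0.06 for PSAT1 and 0.14 for PSPH, and MTHFD2, a mitochondrial folate enzyme, had 0.09.

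None of the 4 tested stress effectors passed in the limma fit, nor had any an unadjusted p under 0.05, and their changes ran from 0.03 to 0.11. They were 0.06 for TRIB3, a pseudokinase induced by ATF4 and CHOP, 0.05 for SESN2, a leucine sensor that restrains mTORC1, and 0.03 for PPP1R15A, the GADD34 protein that brings phosphatase to eIF2 alpha. DDIT4, an inhibitor of mTORC1 also called REDD1, had a change of 0.31 within replicates 4 to 6 (limma adjusted p = 0.0169) and of -0.08 within replicates 1 to 3. In replicates 4, 5 and 6 it read 9.67, 9.44 and 9.57 with GATA4 siRNA and 9.18, 9.29 and 9.28 with NT siRNA. In replicates 1, 2 and 3 it read 9.81, 9.80 and 9.80 with GATA4 siRNA and 9.87, 9.78 and 9.99 with NT siRNA. The difference between these changes was 0.39 (limma unadjusted p = 0.0015, adjusted p = 0.395) and did not pass. Over all genes that interaction gave 0 calls, and 8.17% of genes had an unadjusted p under 0.05, as did 1 of the 32 members.

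In the ER chaperone arm, 1 of 17 tested genes rose, ERP27, and 16 did not pass, where 2.66% of all genes rose and 3.78% fell. The median log2 change of the arm was -0.01. Among the 6 chaperones of the HSP70, HSP90 and J-domain families, 5 had changes below 0, as had 5008 of the 10196 genes tested. HSPA5, the chaperone BiP that holds the ER stress sensors inactive, had a lowest, median and highest value of 9.10, 9.45 and 9.72 in GATA4 siRNA samples, against 9.49, 9.58 and 9.81 in NT siRNA samples. It was lower in 5 of 6 pairs, with a log2 change of -0.16 (SE 0.058, limma adjusted p = 0.101). It passed within replicates 4 to 6 (-0.26, limma adjusted p = 0.0365) and without replicate 3 (-0.21, limma adjusted p = 0.0385). These were the only 2 of 18 alternatives in which it passed. Within replicates 1 to 3 its change was -0.07 (limma adjusted p = 0.771). HYOU1, a large HSP70-related chaperone and exchange factor for BiP, had a change of -0.17 on its bright probe (limma adjusted p = 0.0936) and -0.29 on the other (limma adjusted p = 0.0172 over all tested probes). Its values were 8.71 to 9.06 in GATA4 siRNA samples and 8.95 to 9.22 in NT siRNA samples. HSP90B1, the ER form of HSP90, had -0.08, DNAJB9, a J-domain protein that represses IRE1, had -0.01, SDF2L1 had -0.02 and DNAJC3, an inhibitor of PERK signalling, had 0.00.

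The lectin chaperones CANX and CALR, which retain glycoproteins during folding, had changes of opposite sign. CANX had a change of -0.16 (limma adjusted p = 0.0968), and its other probe had -0.21 (limma adjusted p = 0.0183 over all tested probes). It read 10.35 to 10.61 in GATA4 siRNA samples and 10.42 to 10.82 in NT siRNA samples. CALR had 0.08 (limma adjusted p = 0.360) and was higher in 6 of 6 pairs. The disulfide isomerases PDIA4 and PDIA6 had changes of 0.06 and -0.05. EDEM1, which directs misfolded glycoproteins to degradation, had -0.01, and SEL1L, the adaptor of the HRD1 ubiquitin ligase, had -0.02 and was detected on 8 of 12 arrays. The secreted ER proteins CRELD2 and MANF had -0.01 and -0.04. The factors XBP1 and ATF6 had 0.00 and 0.04 at the mRNA level, and splicing of XBP1 was not measured here. Of the 7 members with over 1 tested probe, 4 had another probe that passed over all tested probes, where 5.92% of probes passed.

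**Figure D3:**
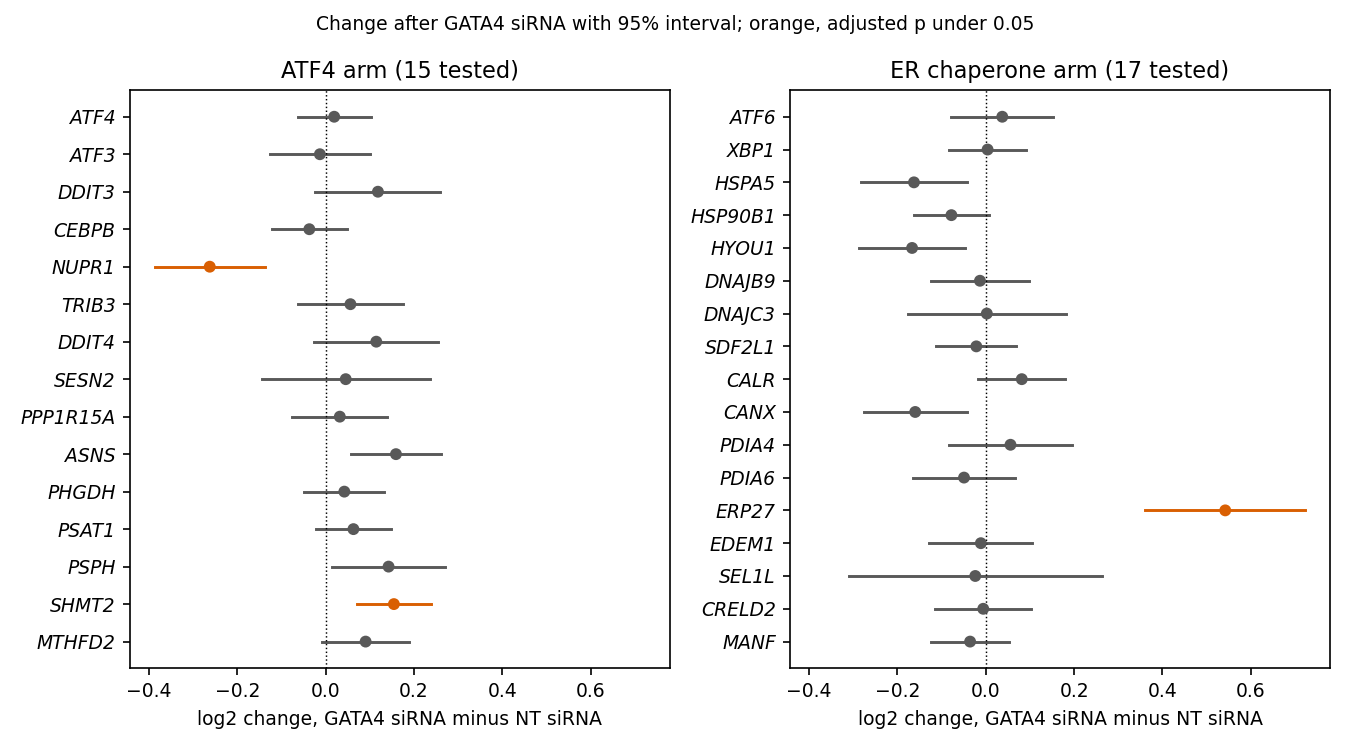
Log2 change after GATA4 siRNA (GATA4 siRNA minus NT siRNA, replicate block) with its 95% interval for the tested genes of the ATF4 arm and of the ER chaperone arm, those past the threshold in orange. NUPR1 at -0.26, SHMT2 at 0.15 and ERP27 at 0.54 are the genes in orange, and the other points lie between -0.17 and 0.16.

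Further genes of the same pathways were read from lists. Of 36 other ATF4 targets, 32 were tested, and with the block 4 rose and none fell, against 2.66% of all genes called higher and 3.78% called lower. PCK2, the mitochondrial form of phosphoenolpyruvate carboxykinase, had a lowest, median and highest value of 9.46, 9.69 and 9.84 in GATA4 siRNA samples, against 9.05, 9.24 and 9.54 in NT siRNA samples, and was higher in 6 of 6 pairs. Its log2 change was 0.40 (limma adjusted p = 3.2e-05). SLC6A9, a glycine transporter, rose by 0.42 (limma adjusted p = 0.00232), SLC1A5, a glutamine transporter, by 0.27 (0.0179), and AARS1, the alanyl-tRNA synthetase, by 0.17 (0.0156). The change of SLC1A5 was 0.47 within replicates 4 to 6 (limma adjusted p = 0.000612) and 0.07 within replicates 1 to 3 (0.751), and the test of that difference did not pass (limma unadjusted p = 0.00128, adjusted p = 0.395). The median over this list was 0.03, and 2 of its 32 genes had a change below 0 with an unadjusted p under 0.05.

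Of 46 other ER stress targets, 41 were tested, and none rose while 3 fell, against the same 2.66% and 3.78% of all genes, with a list median of -0.02. SYVN1, the HRD1 ubiquitin ligase, fell by 0.25 on the log2 scale (limma adjusted p = 0.0087), UGGT1, which senses misfolded glycoproteins, fell by 0.26 (0.0477), and DNAJB11, a cochaperone of BiP, fell by 0.15 (0.0464). In this list 5 genes had an unadjusted p under 0.05 with a change above 0. Of 19 sensors and transcription factors of the responses, 17 were tested, and CREB3L3, an ER-bound factor of liver, fell by 0.34 (limma adjusted p = 0.00715) while none rose and 1 had an unadjusted p under 0.05 with a change above 0. CREB3L3 had a change of -0.55 within replicates 4 to 6 (limma adjusted p = 0.00027) and -0.12 within replicates 1 to 3 (0.613), a difference that did not pass either (limma unadjusted p = 0.00111, adjusted p = 0.395). In the limma fit without the block the adjusted p of these 8 genes was 0.0964 to 0.767.

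Wider differences followed the replicate numbers, up to 2.53-fold among the listed genes. On the arrays of replicates 4 to 6 and of replicates 1 to 3, samples of both siRNA groups formed separate sets, and the labels name no batch, chip or date for them. The split was seen in the values of these same arrays, so the differences are given as a description with no test. The first principal component of all tested genes separated the sets and held 57.3% of the variance. In replicates 4 to 6 against replicates 1 to 3, all 15 tested ATF4 arm genes had a difference below 0, and for 11 of the 15 the 6 arrays of replicates 4 to 6 all lay below the 6 of replicates 1 to 3. Of all genes tested, 47.9% had a difference below 0 and 14.3% lay wholly below in this way, and 11.4% lay wholly above. The median difference was -0.40 for the ATF4 arm, -0.17 for the ER chaperone arm and 0.01 for all genes.

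ATF3 had the largest difference of the listed genes. It read 9.67, 9.46 and 9.56 with GATA4 siRNA and 9.47, 9.45 and 9.54 with NT siRNA in replicates 4 to 6, against 10.95, 10.76 and 10.74 with GATA4 siRNA and 10.86, 10.92 and 10.98 with NT siRNA in replicates 1 to 3. No array of replicates 4 to 6 came near one of replicates 1 to 3, and the siRNA groups lay together within each set. The difference was -1.34 (SE 0.052), or 2.53-fold lower, at rank 35 from the lowest of 10196 genes. TRIB3 was 2.18-fold lower, with a lowest, median and highest value of 8.23, 8.31 and 8.49 in replicates 4 to 6, against 9.32, 9.48 and 9.58 in replicates 1 to 3. DDIT3 was 2.15-fold lower, at 7.43, 7.50 and 7.71 in replicates 4 to 6, against 8.51, 8.60 and 8.96 in replicates 1 to 3. These 3 members were at least 2-fold lower, as were 1.13% of all genes. On the authors' normalised values the differences of TRIB3 and DDIT3 were under 2-fold, at -0.93 and -0.81.

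PPP1R15A, whose promoter holds the cyclic AMP response element, was 1.82-fold lower, with a lowest, median and highest value of 9.92, 9.97 and 10.08 in replicates 4 to 6, against 10.73, 10.86 and 11.03 in replicates 1 to 3. The remaining stress effectors differed by -0.47 for SESN2 and -0.44 for DDIT4. DDIT4 differed by -0.24 over the GATA4 siRNA arrays and by -0.63 over the NT siRNA arrays. Among the enzymes the differences were -0.54 for ASNS, -0.40 for PHGDH, -0.33 for PSPH, -0.24 for MTHFD2, -0.19 for SHMT2 and -0.14 for PSAT1. ASNS, PHGDH, PSPH and MTHFD2 did not overlap between the sets, where 14.3% of all genes lay wholly below, and SHMT2 and PSAT1 did. The factors ATF4 and CEBPB both differed by -0.16 and NUPR1 by -0.17, far less than ATF3 and DDIT3. All tested ATF4 arm genes kept a difference below 0 under each of the scalings and filters tried.

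The ER chaperone arm was mixed. DNAJB9, an early target of spliced XBP1, was 1.94-fold lower, with a lowest, median and highest value of 9.30, 9.59 and 9.69 in replicates 4 to 6, against 10.38, 10.50 and 10.63 in replicates 1 to 3. This is the one ER chaperone arm gene with a difference of the size seen for PPP1R15A. HSPA5 differed by -0.32, SEL1L by -0.32, EDEM1 by -0.30, SDF2L1 by -0.22, HSP90B1 by -0.20, CRELD2 by -0.19, and MANF and HYOU1 by -0.17. Of the 17 genes 11 had a difference below 0, and 5 of these did not overlap between the sets (DNAJB9, HSPA5, EDEM1, SDF2L1 and MANF). Among all genes tested, 47.9% had a difference below 0 and 14.3% lay wholly below. DNAJC3 and ATF6 lay near 0, at -0.05 and -0.04. The lectin chaperones, the disulfide isomerases and XBP1 had differences above 0, of 0.02 for CALR, 0.06 for CANX, 0.12 for both XBP1 and PDIA4, 0.23 for ERP27 and 0.31 for PDIA6, and the sets overlapped for each. The genes that share an ERSE therefore lay on both sides of 0, from -0.32 for HSPA5 to 0.31 for PDIA6. The arm's median was -0.10 on the authors' normalised values and -0.09 with arrays scaled to equal medians, against -0.17 as given above.

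**Figure D4:**
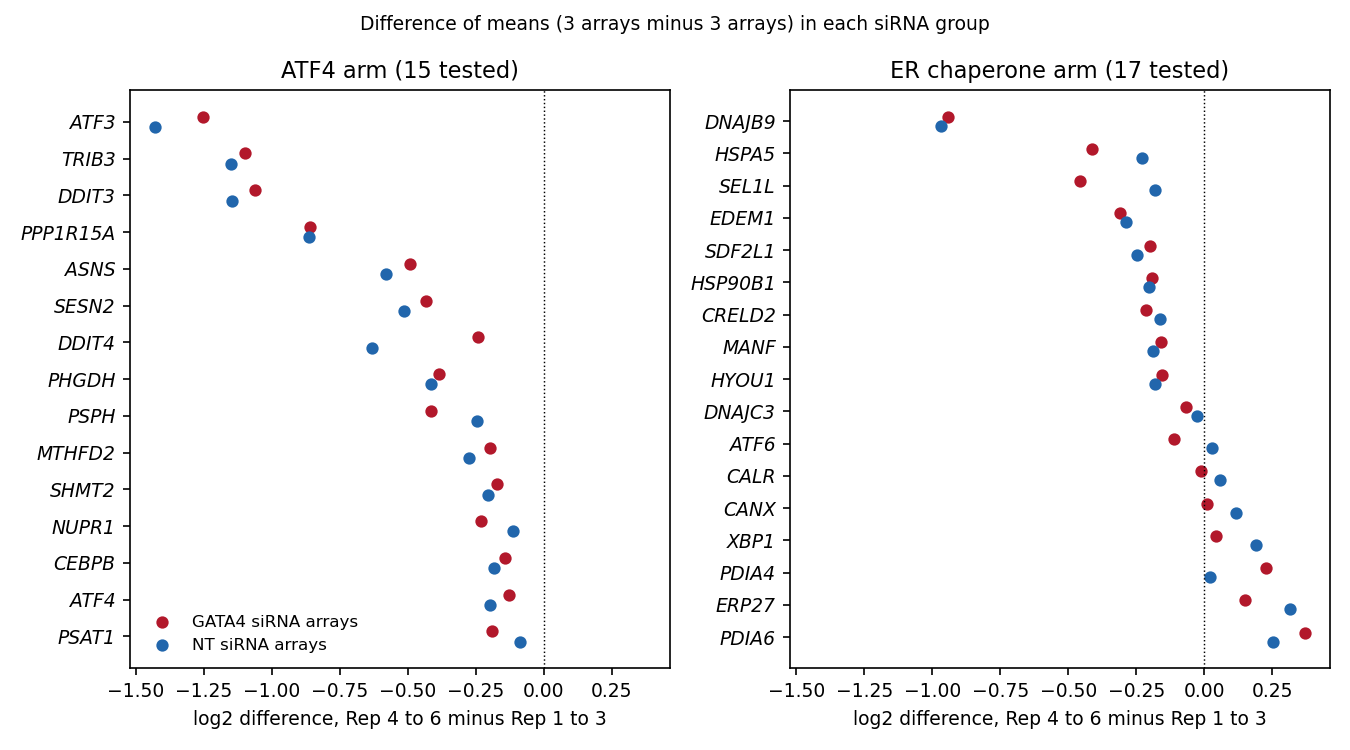
Difference of means between replicates 4 to 6 and replicates 1 to 3 (log2, 3 arrays minus 3 arrays) for each tested gene, over the GATA4 siRNA arrays in red and over the NT siRNA arrays in blue. All ATF4 arm points lie below 0, with ATF3, TRIB3 and DDIT3 lowest, and the ER chaperone arm runs from DNAJB9 to PDIA6 across 0.

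**Figure D5:**
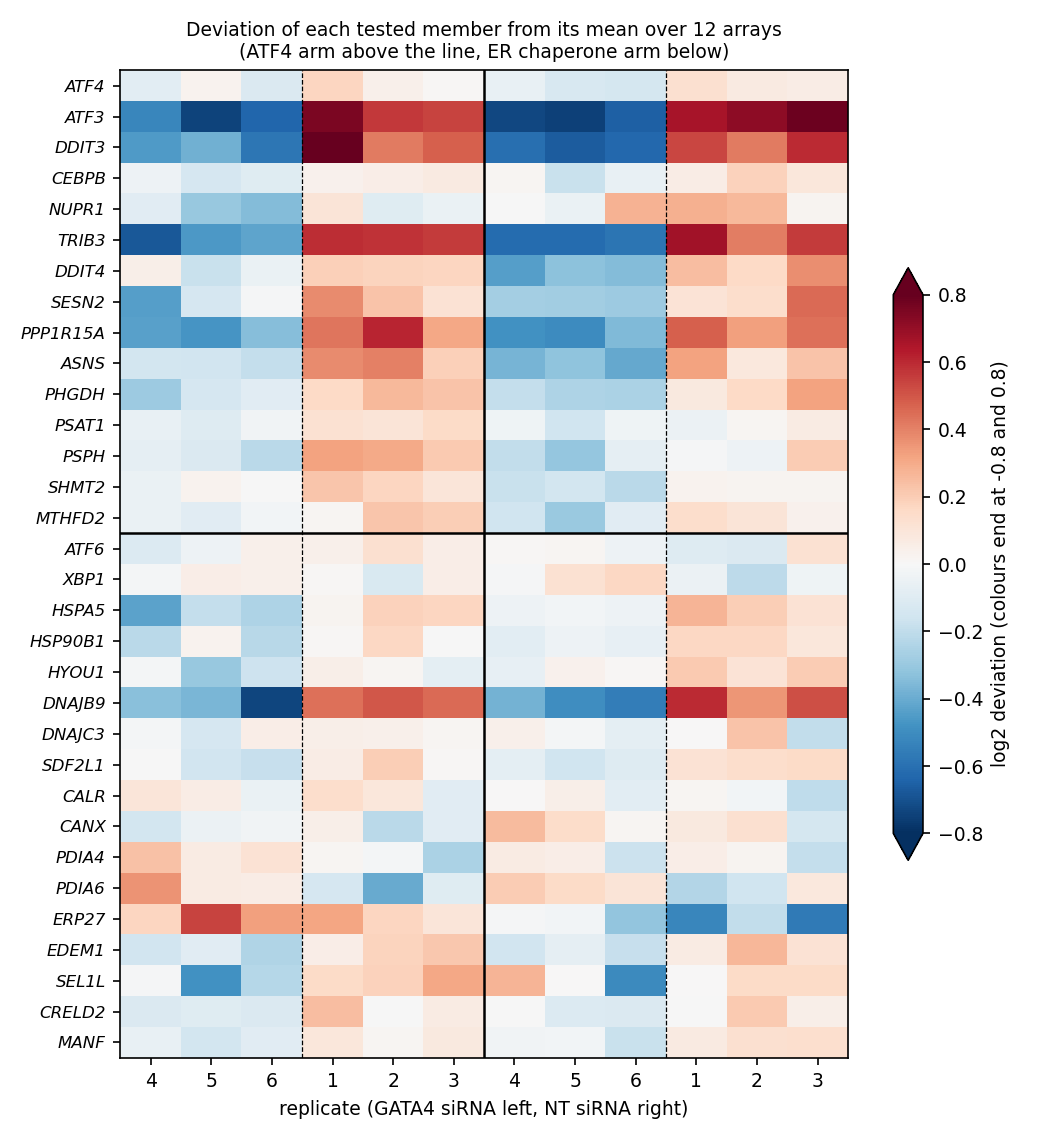
Deviation of each tested gene from its mean over 12 arrays (log2, red above and blue below), with GATA4 siRNA arrays left and NT siRNA arrays right and replicates 4, 5 and 6 before 1, 2 and 3 within each. Most ATF4 arm genes are blue on replicates 4 to 6 and red on replicates 1 to 3 in both siRNA groups.

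The wider lists were also read for differences between the sets. Of the 32 other ATF4 targets tested, 25 had a difference below 0, with a median of -0.27, and 14 lay wholly below and 2 wholly above, against 14.3% and 11.4% of all genes. All 8 tested amino acid transporters were below 0, among them SLC3A2, the heavy chain shared by several transporters, at -0.76. GDF15, a secreted stress cytokine, differed by -0.76 and STC2, a secreted glycoprotein, by -0.61. PYCR1, of proline synthesis, at 0.52, and CBS, of cysteine synthesis, at 0.16 lay wholly above. Of the 41 other ER stress targets, 32 were below 0, with a median of -0.14, and 10 lay wholly below. FKBP11 and FKBP14, prolyl isomerases of the ER, had the lowest values, -0.69 and -0.67. Of the 17 sensors and factors, 14 were below 0, with a median of -0.14, and 6 lay wholly below. EIF2AK3, which encodes PERK, differed by -0.31, and EIF2AK4, the kinase GCN2 that senses uncharged tRNA, by -0.58.

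Among the markers of other cell types, those of leukocytes also moved with the sets. The summed raw signal of the 10 markers of other cell types was 3153.3 to 3900.6 on the arrays of replicates 4 to 6 and 4555.1 to 4942.3 on those of replicates 1 to 3. The 3 leukocyte markers made up most of that difference, with 1683.2 to 2301.9 in replicates 4 to 6 and 3067.5 to 3282.1 in replicates 1 to 3. Of them CD3D differed by -0.95 and CD68 by -0.51, and PTPRC, the defining marker of leukocytes, was detected on no array. The sums of the other types overlapped between the sets. Fibroblast and stellate cell markers summed to 669.1 to 767.2 in replicates 4 to 6 and 684.3 to 793.8 in replicates 1 to 3. Endothelium markers summed to 730.1 to 865.8 and 699.2 to 884.6. PDGFRB differed by -0.25 and PECAM1 by 0.01. The median raw signal overlapped, at 119.7 to 128.1 in replicates 4 to 6 and 117.4 to 123.1 in replicates 1 to 3. The part of the markers in the differences of the stress genes was not tested. Any batch behind the sets and any biological difference between the cultures cannot be told apart here.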

How the data were processed

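Biotin-labelled total RNA of HUH6 cells was read on Illumina HT-12 v4 arrays, per the labels. In the deposited scanner table each probe has a linear intensity (GenomeStudio, per the submitters' processing notes, version not given), of 82.2 or more, so no background had been subtracted. Its detection p-value is in a column of its own, per the file headers. The authors' deposited normalised table holds log2 values. The sources used here do not say how they were made; quantile-normalised log2 intensities come within 0.0141 of them.

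Probe names came from the platform annotation, updated through RefSeq gene IDs (30073 of 30112 probes with 1 symbol matched). The neqc function of limma 3.58.1 in R 4.3.3 corrected the background from the detection p-values, added an offset of 16, and gave quantile-normalised log2 values. The detection filter kept 16339 probes, 13201 with 1 symbol.

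GATA4 siRNA was compared with NT siRNA by limma (lmFit, then eBayes with trend) with the replicate number as a block, two-sided, Benjamini-Hochberg adjusted over 10196 genes at a threshold of 0.05. The pairing rests on the numbers in the labels. Deviations from group means correlated at 0.547 to 0.603 (Pearson's r over genes) between arrays of the same number, at 0.548 to 0.629 between other arrays of the same set (replicates 1 to 3, or 4 to 6) and at -0.625 to -0.537 across sets. Arrays of the same number were thus no closer than other arrays of their set, and these values do not show that the numbers mark pairs. No arrays held identical values.

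The members, the lists of further genes, the markers and the sets were chosen with earlier results of these data known. Every tested member is named, and of the further lists the called genes, up to 4 in each direction; list genes named for their difference between the sets were chosen after their values were seen. The fits were tested on simulated data. Alternatives changed the background correction, scaling, filter, probe rule, variance model (statmod 1.5.0), block and replicates.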

Additional observations from a re-analysis of the deposited data

Results flagged for a closer look

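A few values of the stress genes stood apart. DNAJC3 read 6.69 in GATA4 siRNA replicate 5, below the 6.81 to 6.88 of the other 5 arrays of that group. SEL1L read 4.94 in NT siRNA replicate 6, below the 5.45 to 5.72 of the others. These 2 arrays were the ones far from their group by Dixon's test among 64 groups of 6 values, and chance flags about 5% of groups.

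XBP1 and PDIA4, on the probes that stood for them, had siRNA changes of the same sign in every pair of replicates 4 to 6. The sign was the opposite in every pair of replicates 1 to 3. The change of XBP1 after GATA4 siRNA in replicates 4 to 6 minus that in replicates 1 to 3 was -0.14, and the test of this difference did not pass (limma unadjusted p = 0.0765, adjusted p = 0.631). For PDIA4 it was 0.21 (limma unadjusted p = 0.117, adjusted p = 0.680). The other tested probe of XBP1 did not share the pattern of signs. It read 12.72 with GATA4 siRNA and 12.75 with NT siRNA in replicate 3, and 12.84 and 12.82 in replicate 4. The share of all genes with such a pattern was not counted.

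Probes that did not stand for their gene gave further calls over all tested probes. The log2 change after GATA4 siRNA was 0.25 on the other probe of ATF4, 0.21 on that of ASNS, -0.29 on that of HYOU1 and -0.21 on that of CANX. In each case the brighter probe did not pass, with changes of 0.02, 0.16, -0.17 and -0.16.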

How the results depend on the processing

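With 2 members higher and 1 lower, against 271 and 385 of all genes, counts moved with the block. With no replicate block 1 member was higher and 0 lower (2 and 3 members at an unadjusted limma p under 0.05), and 20 and 52 of all genes; a call lost in that fit is not a smaller change, since the log2 changes are the same. With the set of replicates as a block 3 members were higher, ASNS among them (limma adjusted p = 0.0377), and 1 lower, with 335 and 450 of all genes. Within replicates 4 to 6 the counts were 3 and 2 members and 196 and 333 genes. Within replicates 1 to 3 the counts were 1 and 0 members (3 and 2 unadjusted) and 36 and 85 genes. With arrays scaled to equal medians 1 member was higher, with 129 and 231 of all genes, and 1 gene in place of 0 passed for the difference of the siRNA change between the sets. With no filter 1 member was higher, with 153 and 245 of all genes. With the mean of all probes 3 members were higher and 3 lower, with 235 and 371 of all genes. With every tested probe on its own, an alternative chosen after seeing the data, 4 members were higher and 3 lower, with 307 and 475 of 13201 probes. Leaving out each replicate number in turn gave 1 to 3 members higher, 0 to 3 lower and 175 to 239 of all genes higher; without replicate 6, 0 members were lower and 4 had an unadjusted limma p under 0.05.

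Over 18 alternatives ERP27 was called in 18, NUPR1 in 15, SHMT2 in 10 and ASNS in 5. Of the members' siRNA changes under these alternatives, 519 kept their direction and side of the threshold, 11 were lost, 11 gained and 34 values that were not called changed sign. The median difference between the sets for the ATF4 arm and the ER chaperone arm was -0.29 and -0.098 without background correction, -0.29 and -0.098 on the authors' values, -0.36 and -0.088 with arrays scaled to equal medians, and -0.33 and -0.11 with no filter. It was -0.11 for the ER chaperone arm with detection on all 12 arrays. Leaving out each replicate number gave -0.44 to -0.36 for the ATF4 arm and -0.17 to -0.14 for the ER chaperone arm. The cause of these shifts was not tested. Signal near background limits ERP27, SESN2, DNAJC3 and SEL1L, and CHAC1, VLDLR and PDIA3 could not be compared.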
